A study of Mus musculus with 31 samples.

Results

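Focal adhesions join integrins in the cell membrane to the actin cytoskeleton, and 33 mouse genes that encode their cytoplasmic adaptors and signaling proteins were followed here. The 33 genes were chosen by name, for their known place in the adhesion, from the 20704 genes counted in ribosome footprints and the 24593 genes counted in total RNA. The choice was made with earlier results of these data known. They were divided by role into 8 groups: talins and kindlins, actin linkers, the ILK complex, tensins, FAK and Src with their scaffolds, the zyxin family with the Ena/VASP proteins, PDZ-LIM and CRP proteins, and caveolin.

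In an adhesion, talin and kindlin bind integrin tails and hold the receptor active, while vinculin, α-actinin and filamin tie the complex to actin filaments. FAK and Src phosphorylate scaffolds such as paxillin and Bcar1, which recruit Crk, Nck and Git adaptors and so pass the signal on to the cytoskeleton. Zyxin and its relatives bring Ena/VASP proteins to sites under tension, where actin is extended and repaired, and keratinocytes use the whole assembly to spread and to migrate.

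The cells were a mouse skin squamous cell carcinoma (SCC) line with oncogenic HRas and an eGFP reporter, whose TgfbrII alleles the labels give as floxed and the study's list of cell lines as deleted. Both endogenous alleles of Eif2s1, which encodes the translation factor eIF2α, had been ablated with CRISPR and replaced by a lentiviral, PGK promoter-driven, myc-tagged transgene that was either wild type (S51, able to mount the integrated stress response, ISR) or phospho-dead (S51A, ISR-null). Each line received vehicle (DMSO) or 100 nM bortezomib, a proteasome inhibitor, for 4.5 h per the labels and 4 h per the study's methods. All groups therefore carry the same oncogene and a transgene in place of the native Eif2s1, and the lines rest on a small number of clones that the labels do not tie to libraries. Ribosome-protected fragments (RPF) were sequenced in 15 libraries, 4 per group except 3 for S51 vehicle, and total RNA in 16 libraries, 4 per group. A note in the record says that the titles of the S51 bortezomib and S51A vehicle samples were exchanged and that the data stayed with each sample. The column numbers of these groups still follow the titles from before the exchange and do not match the numbers in the present titles. The columns were therefore assigned by the note, and reading them by the present title numbers would exchange S51 bortezomib with S51A vehicle.

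Depth was 1038826 to 4902237 counts per RPF library and 18758668 to 22994713 counts per total RNA library. Levels are given as CPM, counts per 1000000 counts of the tested genes, with each library total scaled by TMM. Hspa1b, a heat shock gene induced by proteasome inhibition, averaged 30.4 CPM of RPF in S51 with vehicle and 936 with bortezomib under this assignment. In S51A it averaged 36.3 and 816 CPM. Eif2s1 averaged 138 and 170 CPM in S51 and 231 and 208 CPM in S51A, which is no check of genotype because both lines carry a transgene. All 12 basal keratinocyte markers were above the floor of 3 counts in some library of every group. Their summed RPF level was 29559 to 42340 CPM over libraries. The summed fibroblast markers reached at most 9.99 CPM (Col1a2, Pdgfrb, Dcn and Thy1 were at 0 in every group), immune markers at most 20.3 CPM, endothelial markers at most 8.61 CPM and melanocyte markers at most 1.51 CPM. In bulk lysates, fewer expressing cells and less RNA per cell cannot be told apart.

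Replicate 2 of S51 vehicle RPF stood apart from its group. Its chi-square per gene against the other replicates was 13.2 and 18.4, while the 19 other replicate pairs gave 1.66 to 5.01. It was the highest of the 3 S51 vehicle libraries for 22 of 31 adhesion genes, by 1.61 times the mean of the others for Git1, 1.54 for Zyx and 1.52 for Pxn, and it was the lowest for 5 (Cav1 at 0.595 times). Calls that rest on S51 vehicle RPF are therefore given with and without it.

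Of the 33 genes, 31 passed the filter on low counts in RPF and 30 in total RNA. Fermt2, which encodes the widely expressed kindlin, had 0 footprints in every library, which allows up to 0.612 to 2.89 CPM depending on depth, and at most 2 counts of total RNA. Tgfb1i1, which encodes the paxillin relative Hic-5, had at most 1 footprint and 6 total RNA counts. Both failed the filter in both measures, and Ilk failed it in total RNA. Ilk, the integrin-linked kinase, had 151 to 768 footprints but 2 to 11 total RNA counts in each library; its annotated coding exons overlap Rrp8 on the opposite strand by 89 nt, and whether this touched its total RNA count was not tested. Tln2 was also sparse, with 1 to 20 footprints per library, and Nck2 had 6 to 52.

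Footprint levels were divided by the length of the longest annotated coding sequence, less the codons left out of counting. Which isoforms were expressed was not tested. In S51 vehicle these levels spanned a wide range. Cav1, the coat protein of caveolae, stood at 701 ± 197 CPM per kb (SD, n = 3), followed by the PDZ-LIM protein Pdlim1 at 612 ± 13.9 and Zyx at 479 ± 129. The ranges of these genes met, so their order is not resolved. Flna stood at 73.3 ± 3.25 CPM per kb and Vcl at 39.2 ± 2.04. The lowest of the genes that passed the filter were Nck2 at 4.08 ± 0.999 and Tln2, the second talin, at 0.517 ± 0.171 CPM per kb. Every library of both lay under the lowest values of Cav1, Pdlim1 and Zyx.

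The first question was how these genes changed with bortezomib in ISR-competent cells. In S51, footprints of the actin linkers Flna and Vcl rose, and footprints of Src, Fermt1, Git1, Zyx and Pxn fell. A call required a Benjamini-Hochberg adjusted p below 0.05 over all genes tested (edgeR's quasi-likelihood test) and a change above 1.5-fold. By this rule 2 of the 31 genes were higher, where 7.38% of all genes were, and 5 were lower, where 11.2% of all genes were. The median log2 difference of the 31 was -0.14, against 0.00 over all genes, with 12 above 0 and 19 below. The S51 libraries of 10 genes did not overlap between treatments, against 32.2% of all genes. Counted by adjusted p alone, 4 were higher, against 14.8% of all genes, and 7 lower, against 16%. Counts at an unadjusted p below 0.05, given further on, have no share of all genes beside them and cannot be read against one. Without replicate 2 of S51 vehicle, 5 calls were made in place of 7: Pxn (-0.45, adjusted p = 0.000273) and Zyx (-0.57, adjusted p = 2.95e-07) then lay under the fold for a call. The shares of all genes given here and below belong to the fit with all libraries and are no measure for counts without this replicate. Replicates may be technical or separate cultures, since the study's text and legends differ on this, and all p-values measure only the spread between these libraries.

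**Figure D1:**
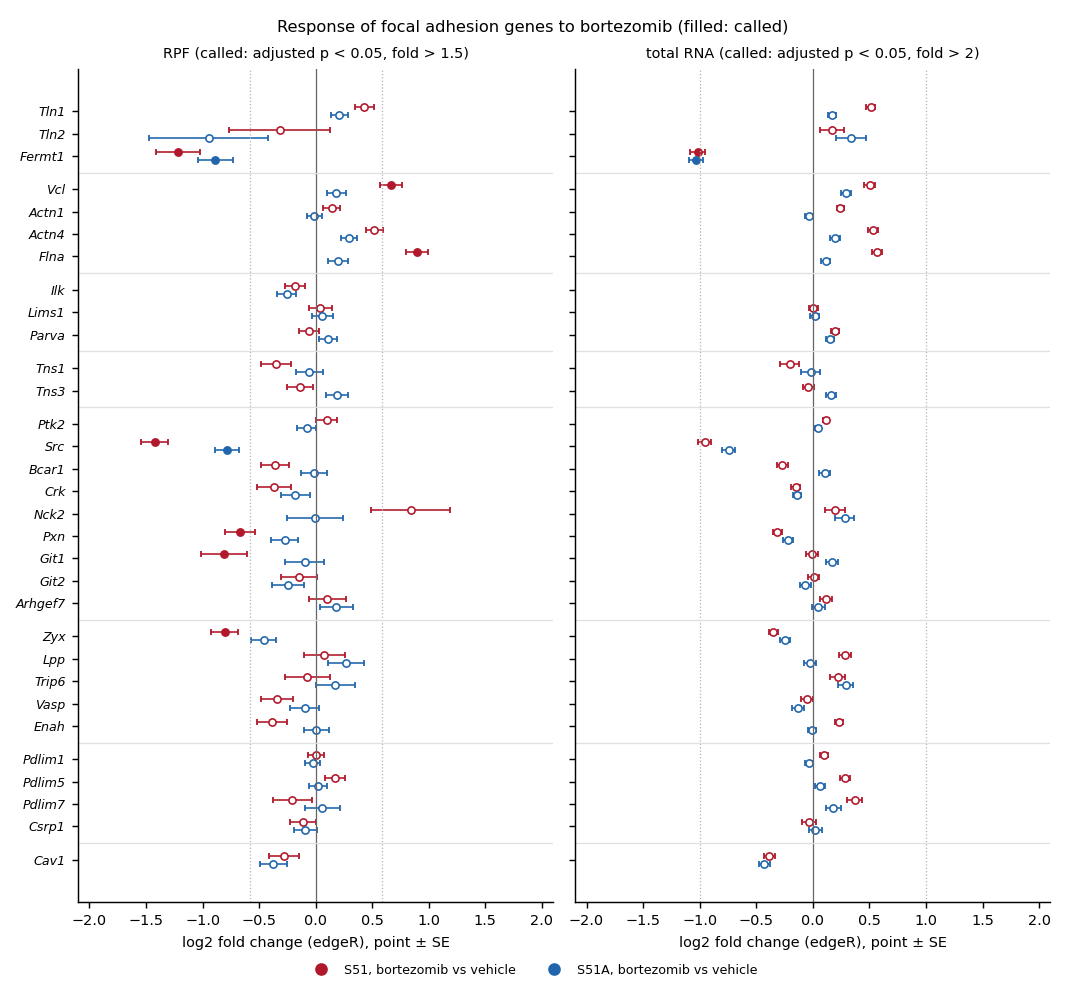
Response to bortezomib of each focal adhesion gene: log2 difference (bortezomib minus vehicle, x axis) in RPF (left) and total RNA (right), with genes on the y axis ordered by role, S51 and S51A in separate colours, bars for 1 SE and filled points for called differences. Flna (0.90 in S51, 0.19 in S51A) and Vcl (0.67 and 0.18) stand to the right in S51 RPF, while Src and Fermt1 stand to the left in both lines.

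Among the actin linkers, Flna on chromosome X (X:74223461-74249854, mm10) encodes filamin A, which crosslinks actin filaments and binds integrin tails. Its RPF levels were 603, 577 and 552 CPM in S51 vehicle and 862, 1046, 1172 and 1221 CPM in S51 bortezomib. Every bortezomib library was above every vehicle library. The log2 difference was 0.90 ± 0.10 (SE; adjusted p = 3.79e-07), and it was 0.90 without replicate 2. Total RNA of Flna moved the same way, from 680, 679, 627 and 651 CPM in vehicle to 893, 965, 1025 and 1024 CPM in bortezomib. These groups did not overlap either, but the log2 difference of 0.57 (adjusted p = 2.97e-11) lay under the 2-fold change that a call in total RNA required.

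Vcl (14:20929383-21033676) encodes vinculin, which binds stretched talin and ties it to actin, and whose protein the study imaged. Its footprints were 128, 127 and 139 CPM in S51 vehicle and 178, 224, 224 and 207 CPM in S51 bortezomib. The groups were again apart, with a log2 difference of 0.67 ± 0.09 (adjusted p = 1.38e-05), and of 0.64 without replicate 2. In total RNA the vehicle libraries held 62.5, 56.2, 60.5 and 61.4 CPM and the bortezomib libraries 87.7, 83.4, 87.2 and 82.4 CPM, a log2 difference of 0.50 (adjusted p = 8.22e-10). The sources used here do not say that counting used strand, and reads over the 571 nt of exon that Vcl shares with Ap3m1 on the opposite strand (10.4% of its exons) may then not be told apart. The same holds for 338 nt (8.37%) of Actn4 and Capn12. The study's methods counted footprints over coding regions, and the coding exons of these gene pairs were not annotated as overlapping. Actn4, an α-actinin, was higher by 0.52 in RPF with an adjusted p below 0.05 and under the fold for a call; its libraries held 563, 572 and 526 CPM in vehicle and 765, 829, 798 and 780 CPM in bortezomib. Actn1, the other α-actinin, had a log2 difference of 0.14. The median of the 4 actin linkers was 0.59 in RPF (range 0.14 to 0.90) and 0.52 in total RNA (0.24 to 0.57).

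Promoters are shown because vinculin and its partners are textbook targets of the serum response factor (SRF), which reads a CArG box, and because the response of SRF targets is given further on. Windows from 250 bases before to 50 bases after each RefSeq gene start (GRCm38.p6) were searched on both strands, in 40 windows of 28 of the 33 genes, since some genes have several starts. A CArG box was found in 3 of these 28 genes (10.7%), against 1.81% of 27025 genes. The matches are printed 5′ to 3′ on the strand of the match, with the box in capitals. The Vcl match lies on the plus strand at chr14:20929161-20929190, that of Trip6 on the minus strand at chr5:137314221-137314250 and that of Fermt2 on the minus strand at chr14:45530250-45530279. The matches of Trip6 and Fermt2 lie inside the annotated span of their gene, and that of Vcl before it.
Vcl CArG box: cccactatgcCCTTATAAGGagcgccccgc
Trip6 CArG box: gtggtcgtctCCAAAATTGGggaggaaggg
Fermt2 CArG box: tccttcatttCCATAAAAGGgcagcgctcc
The AP-1 letters TGANTCA were found in 2 genes, Actn4 and Zyx (7.14%, against 8.97% of all genes). The Actn4 match lies on the minus strand at chr7:28962485-28962511 and the Zyx match on the plus strand at chr6:42349697-42349723, inside the annotated span of Zyx.
Actn4 AP-1 letters: ccccgccttaTGAATCAttcatgactt
Zyx AP-1 letters: gtgcggacagTGAGTCAgttctccagc
The TEAD letters GGAATG were found in 5 genes, Actn4, Flna, Lpp, Trip6 and Vcl (17.9%, against 16.6%). The genes with a CArG box did not share a response in S51 RPF: Vcl rose, Trip6 had a log2 difference of -0.08, and Fermt2 had no footprints. A match describes the letters in this window only.

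Among the kinases and scaffolds, Src (2:157423906-157471838), the tyrosine kinase that FAK brings to the adhesion, had the lowest value of all 31 genes. Its footprints were 134, 150 and 111 CPM in S51 vehicle and 45.1, 48.8, 51.4 and 48.7 CPM in S51 bortezomib. All bortezomib libraries were under all vehicle libraries, and the log2 difference was -1.42 ± 0.12 (adjusted p = 7.14e-09; -1.31 without replicate 2). Total RNA of Src was 237, 235, 220 and 204 CPM in vehicle and 121, 118, 115 and 108 CPM in bortezomib. That log2 difference was -0.96 ± 0.06 (adjusted p = 8.24e-13), just under 2-fold.

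Git1 (11:77493288-77507774), an Arf GTPase-activating scaffold that binds paxillin and β-Pix, differed from Src in total RNA. Its footprints were 35.1, 60.4 and 39.8 CPM in S51 vehicle and 33.5, 27.7, 20.4 and 22.4 CPM in S51 bortezomib. The bortezomib libraries were all lower, by a log2 difference of -0.81 ± 0.20 (adjusted p = 0.00413; -0.59, still called, without replicate 2). Total RNA was 88.4, 80.9, 84.3 and 77.1 CPM in vehicle and 90.9, 82.7, 76.6 and 79.5 CPM in bortezomib. These groups overlapped, with a log2 difference of 0.00. Git1 was the 1 gene of 30 that met the study's 2-step rule for a translational decrease, which asks for a call in RPF and a further 1.5-fold between RPF and total RNA; 4.24% of all genes met it, and DESeq2 also gave Git1 alone. For an increase 1.28% of all genes met it and none of the 30 did by edgeR or DESeq2 (1, Nck2, at an unadjusted p below 0.05).

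Pxn (5:115491970-115555987) encodes paxillin, a docking platform for FAK and Crk. Its footprints were 278, 395 and 241 CPM in S51 vehicle and 194, 209, 168 and 195 CPM in S51 bortezomib. The groups did not overlap, with a log2 difference of -0.67 ± 0.13 (adjusted p = 0.000538). The high vehicle value is that of replicate 2, without which the difference lay under the fold for a call. Bcar1, the Crk-binding Cas scaffold, was lower by 0.36 with an adjusted p below 0.05 and under the fold for a call. Its S51 vehicle libraries held 294, 388 and 240 CPM, the 388 being replicate 2, against 227 to 248 CPM in S51 bortezomib. Over the alternatives the Bcar1 difference ranged from -0.54 to -0.16, with an adjusted p of up to 0.204. Ptk2, which encodes FAK itself, had a log2 difference of 0.10, and Arhgef7, which encodes β-Pix, also 0.10. Nck2, an adaptor, had the highest value of this role, 0.84, but its adjusted p was 0.0739, and its bortezomib libraries of 4.37, 5.74, 13.2 and 5.6 CPM held a single high one. The median of the 9 tested genes of this role was -0.36.

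Zyx (6:42349511-42360213) encodes zyxin, a LIM protein that moves to stressed actin fibres and was also imaged in the study. Its footprints were 694, 1024 and 634 CPM in S51 vehicle and 444, 436, 437 and 472 CPM in S51 bortezomib. The bortezomib libraries lay close together and under every vehicle library, by a log2 difference of -0.81 ± 0.12 (adjusted p = 2.65e-05), and lay under the fold for a call without replicate 2. Total RNA of Zyx was 219, 203, 203 and 203 CPM in vehicle and 164, 164, 165 and 157 CPM in bortezomib, a log2 difference of -0.35. Zyx shares 236 nt of exon (5.47%) with Epha1 on the opposite strand, with no annotated overlap of their coding exons. Its relatives Lpp and Trip6 had log2 differences of 0.07 and -0.08, and the actin polymerase Vasp -0.34. Enah (1:181896384-182027556), the Ena/VASP protein Mena, had 71.6, 80.3 and 58 CPM in vehicle and 52.4, 48.8, 50.7 and 59.4 CPM in bortezomib, with a log2 difference of -0.38 (adjusted p = 0.0308) under the fold for a call. Over the alternatives the Enah difference ranged from -0.54 to -0.27, with an adjusted p of up to 0.107.

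Fermt1 (2:132904177-132946036) encodes kindlin-1, the integrin activator of epithelial cells. Its footprints were 45.3, 35.8 and 54.5 CPM in S51 vehicle and 18.2, 16.3, 25.3 and 16.2 CPM in S51 bortezomib. The groups were apart, by a log2 difference of -1.22 ± 0.20 (adjusted p = 6.96e-05; -1.33 without replicate 2). In total RNA the vehicle libraries held 56.3, 59.6, 62 and 58.3 CPM and the bortezomib libraries 31.5, 25.1, 32.3 and 27.9 CPM. Fermt1 fell there too, by 1.02 ± 0.07 on the log2 scale (adjusted p = 2.63e-12), the 1 gene of 30 called lower in total RNA, where 3.02% of all genes were. No gene of the 30 was called higher there by edgeR (1.96% of all genes were; 15 of the 30 had an unadjusted p below 0.05, and DESeq2 called 0). Counted by adjusted p alone, 13 were higher, against 29.7% of all genes, and 8 lower, against 30.2%. Tln1, the main talin, which links kindlin-activated integrins to actin, was higher in RPF by 0.43 with an adjusted p below 0.05; it had 165, 186 and 173 CPM in vehicle and 216, 247, 240 and 236 CPM in bortezomib.

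**Figure D2:**
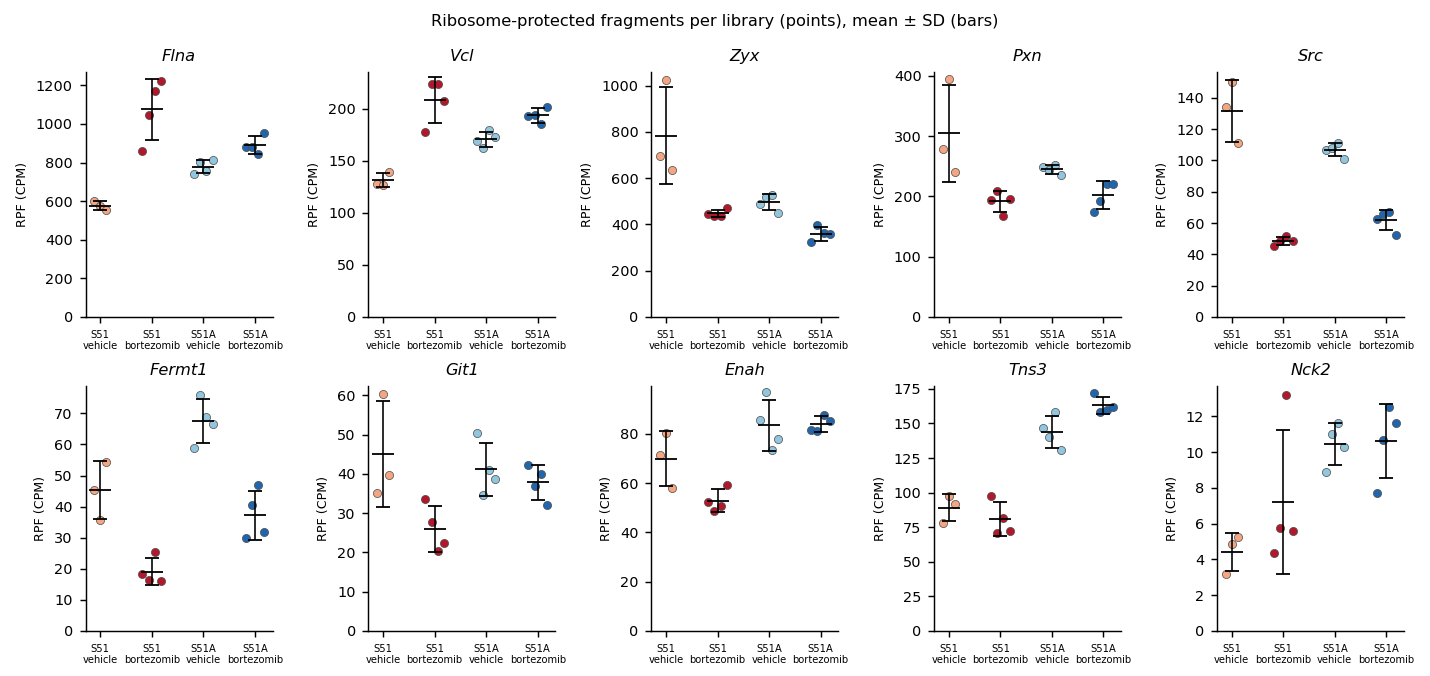
RPF level in CPM (y axes, each panel with its own scale) of every library for Flna, Vcl, Zyx, Pxn, Src, Fermt1, Git1, Enah, Tns3 and Nck2, in the 4 groups on the x axis, with points for libraries and bars for mean ± SD. S51 bortezomib libraries lie at 862 to 1221 CPM for Flna and at 45.1 to 51.4 CPM for Src, and the S51 vehicle point of 1024 CPM for Zyx is replicate 2.

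The remaining groups moved little in S51. The ILK complex (the kinase-like Ilk, the PINCH protein Lims1 and the parvin Parva) had log2 differences of -0.18 to 0.04. The PDZ-LIM proteins and Csrp1, which bind α-actinin, had -0.21 to 0.17, with no call. The tensins, which bind integrin tails in place of talin, had -0.35 (Tns1) and -0.14 (Tns3). Cav1 had -0.28.

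Footprints were next compared with total RNA, whose ratio is the translational efficiency (TE). Ilk was left out of it for its few total RNA counts. Across the 30 genes tested in both, the S51 responses of RPF and of total RNA had a Pearson correlation of 0.853 and a Spearman correlation of 0.786, with the same sign in 24. This describes genes and not replicates, and the paired libraries come from the same lysates. The TE difference, tested as the interaction of library kind with group, was below 0 in 23 of the 30 and above in 7, with a median of -0.12. Over all genes 51.7% lay above 0, with a median of 0.01. Total RNA and RPF were each scaled over all genes, and with library sizes alone the all-gene TE median moved by 0.16, so the signs of the 30 hold only relative to the scaling. They also rest on replicate 2 of S51 vehicle RPF. That library was the highest of its group for 22 of 31 adhesion genes, and the signs were not counted without it. TE fell in 2 genes, Git1 and Enah, where 3.97% of all genes were called lower. TE of none was called higher by edgeR (1.16% of all genes; 1, Flna, had an unadjusted p below 0.05, and DESeq2 called 0).

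For Git1 the ratio of RPF to total RNA CPM was 0.397, 0.747 and 0.473 in the S51 vehicle lysates and 0.368, 0.335, 0.267 and 0.282 in the S51 bortezomib lysates. All bortezomib ratios were lower, with a TE log2 difference of -0.79 ± 0.19 (adjusted p = 0.0059; -0.59 and called without replicate 2). For Enah the ratio was 0.497, 0.607 and 0.41 in vehicle and 0.318, 0.287, 0.313 and 0.351 in bortezomib. The groups did not overlap, and the TE log2 difference was -0.59 ± 0.12 (adjusted p = 0.00114). Total RNA of Enah had a log2 difference of 0.23 (adjusted p = 8.36e-06), opposite in sign to its footprints. Without replicate 2 the TE difference of Enah was -0.49 (adjusted p = 0.00592), under the fold for a call, and DESeq2 called Git1 but not Enah. Zyx (-0.44), Src (-0.44) and Flna (0.35) had adjusted p of 0.0251, 0.0346 and 0.0266 for TE and lay under the fold for a call.

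**Figure D3:**
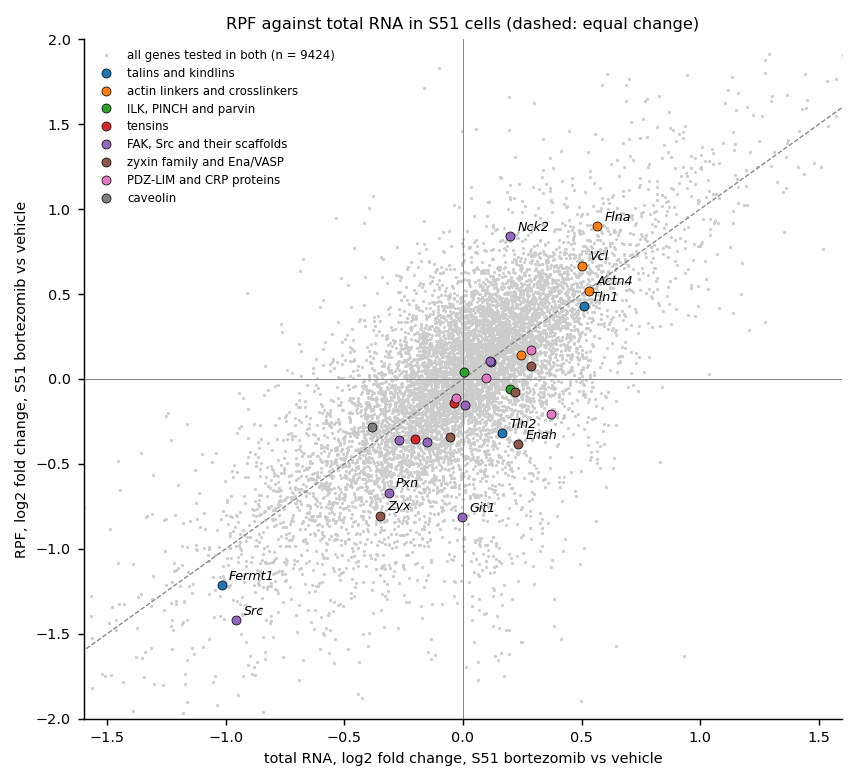
Log2 difference between bortezomib and vehicle in S51 for RPF (y axis) against total RNA (x axis), with all 9424 genes tested in both in grey (114 lie beyond the axes), the focal adhesion genes coloured by role and a dashed line for equal change. Git1 (0.00 in total RNA, -0.81 in RPF) and Enah (0.23 and -0.38) lie under the line, and Flna (0.57 and 0.90) lies above it.

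**Figure D4:**
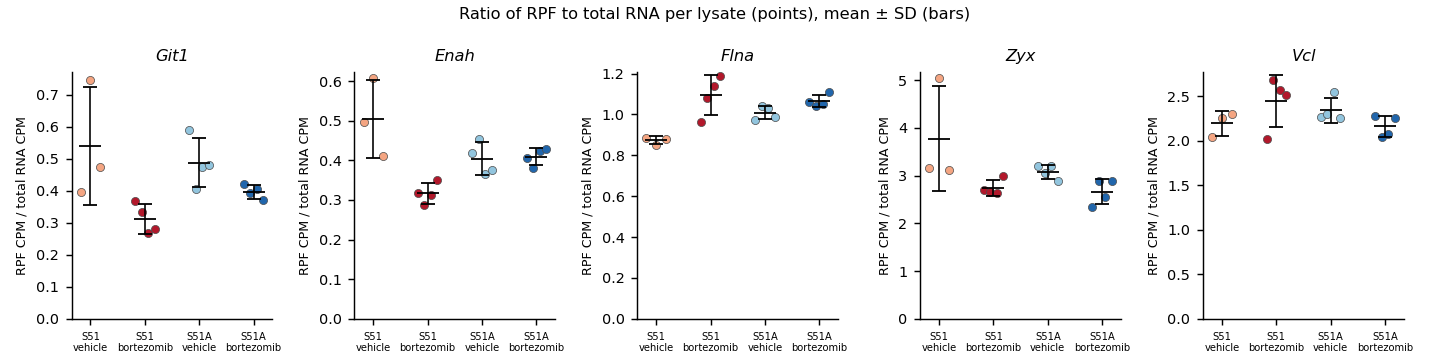
Ratio of RPF CPM to total RNA CPM (y axes, each panel with its own scale) in every lysate for Git1, Enah, Flna, Zyx and Vcl, in the 4 groups on the x axis. The S51 bortezomib lysates lie at 0.267 to 0.368 for Git1 and at 0.287 to 0.351 for Enah, under all S51 vehicle lysates of the same gene.

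The second question was which changes occurred in ISR-null cells. In S51A, Fermt1 and Src fell with bortezomib and no gene of the group was called higher. The 2 lower calls compare with 6.67% of all genes, and the 0 higher calls by edgeR with 4.19% (4 of the 31, Tln1, Vcl, Actn4 and Flna, had an unadjusted p below 0.05, and DESeq2 called 0). The median log2 difference was -0.01, as over all genes (-0.01). By adjusted p alone 1 was higher, Actn4 (0.29), against 9.25% of all genes, and 5 were lower, against 11.4%; beside Src, Fermt1 and Zyx these were Ilk (-0.26) and Cav1 (-0.37). In 13 of the 31 the S51A libraries did not overlap between treatments, against 28.1% of all genes.

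Src footprints in S51A were 107, 108, 111 and 101 CPM in vehicle and 62.5, 65.8, 67.1 and 52.6 CPM in bortezomib. The groups were apart, by -0.79 ± 0.11 on the log2 scale (adjusted p = 1.08e-05). Its total RNA difference was -0.74 (adjusted p = 1.01e-10), under the 2-fold change. Fermt1 footprints were 58.9, 75.8, 68.9 and 66.7 CPM in vehicle and 30, 40.4, 46.8 and 31.7 CPM in bortezomib. Again no library overlapped, and the log2 difference was -0.89 ± 0.16 (adjusted p = 0.000232). Total RNA of Fermt1 fell by 1.03 ± 0.06 on the log2 scale (adjusted p = 1.12e-12), the 1 call of 30 in total RNA, where 2.55% of all genes were lower. None was called higher by edgeR (1.63% of all genes; 12 of 30 at an unadjusted p below 0.05, and 0 by DESeq2). By adjusted p alone 11 of the 30 were higher, against 27.5% of all genes, and 7 lower, against 28.9%.

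Flna footprints in S51A were 742, 802, 756 and 814 CPM in vehicle and 882, 883, 842 and 955 CPM in bortezomib. The groups did not overlap, but the log2 difference of 0.19 had an adjusted p of 0.124. Vcl footprints were 169, 162, 179 and 173 CPM in vehicle and 193, 194, 185 and 202 CPM in bortezomib, also apart, with a log2 difference of 0.18 (adjusted p = 0.134). Zyx footprints were 487, 519, 525 and 450 CPM in vehicle and 324, 398, 361 and 357 CPM in bortezomib, with no overlap. Their log2 difference of -0.46 (adjusted p = 0.00508) was under the fold for a call. Pxn had -0.28 (adjusted p = 0.11) and Git1 -0.10 (adjusted p = 0.737). None of the 30 met the 2-step rule in S51A by edgeR, by edgeR at an unadjusted p below 0.05 (0) or by DESeq2 (0), which 0.212% of all genes met as an increase and 0.647% as a decrease. TE of none of the 30 was called in S51A by edgeR (0.0846% of all genes were higher and 0.857% lower; 0 were higher and 1, Tln2, lower at an unadjusted p below 0.05, and DESeq2 called 0).

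The responses of the lines were then tested against each other, as the S51A minus S51 difference of the bortezomib effects. In RPF, Flna was called with a lower response in S51A and Src with a higher one. For Flna the difference was -0.70 ± 0.13 (adjusted p = 0.00351; -0.71 without replicate 2), 1 call of 31 where 0.878% of all genes were lower. For Src it was 0.64 ± 0.16 (adjusted p = 0.0355), 1 call of 31 where 0.983% were higher, and its fall was the smaller in S51A. Without replicate 2 of S51 vehicle the Src difference was 0.53 (adjusted p = 0.0241), under the fold for a call. The Src call was kept in 8 of 21 alternatives and was lost with the replicate block and on leaving out any of 12 libraries. Vcl had -0.48 ± 0.13 (adjusted p = 0.0431), under the fold for a call. By adjusted p alone these were 1 higher and 2 lower, against 1.31% and 1.04% of all genes. For Zyx (0.35, adjusted p = 0.307), Pxn (0.39, adjusted p = 0.281), Git1 (0.71, adjusted p = 0.173) and Fermt1 (0.33, adjusted p = 0.562) a difference between lines was not resolved. At an unadjusted p below 0.05 there were 6 higher and 3 lower.

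In total RNA no response difference of the 30 reached 2-fold, by edgeR or by DESeq2 (0.162% of all genes were called higher and 0.316% lower; 4 were higher and 9 lower at an unadjusted p below 0.05). Counted by adjusted p alone, 8 were lower in S51A, against 12% of all genes. They were Tln1 (-0.34), Vcl (-0.21), Actn1 (-0.28), Actn4 (-0.34), Flna (-0.45 ± 0.06, adjusted p = 9.3e-06), Lpp (-0.31), Enah (-0.24) and Pdlim5 (-0.22). These include all 4 actin linkers, whose total RNA responses had medians of 0.52 in S51 and 0.15 in S51A. Another 2 were higher in S51A, Bcar1 (0.38) and Tns3 (0.20), against 9.58% of all genes. In TE, 1 gene was called with a higher response in S51A, Enah (0.61 ± 0.16, adjusted p = 0.0377; 0.51 and adjusted p = 0.0622 without replicate 2), where 1.08% of all genes were. None was lower by edgeR (0.211% of all genes; 2, Vcl and Nck2, at an unadjusted p below 0.05), and DESeq2 also called 0 lower. With the lysate as a block, the Enah TE response difference was 0.65 (adjusted p = 0.0805) and not called.

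Vehicle-treated lines were compared to see how the genes stood before bortezomib. In RPF, Nck2 and Tns3 were higher in S51A and Zyx was lower, by the same rule (2 of 31 higher, against 9.19% of all genes, and 1 lower, against 6.62%). By adjusted p alone 7 were higher, against 14.8% of all genes, and 4 lower, against 13.8%. The first included Fermt1 (0.56), Cav1 (0.50), Ptk2 (0.44), Flna (0.43) and Vcl (0.38), and the second Vasp (-0.56), Bcar1 (-0.49) and Src (-0.30). These values include replicate 2 of S51 vehicle. It stood at 1.6, 1.45 and 1.22 times the mean of the other S51 vehicle libraries for Vasp, Bcar1 and Src. For Fermt1 and Cav1 it stood at 0.717 and 0.595 times. The libraries of 15 genes did not overlap between lines, against 33% of all genes. Tns3 (11:8431652-8664758), a tensin, had 78.3, 97.2 and 91.6 CPM in S51 vehicle and 147, 140, 158 and 131 CPM in S51A vehicle. All S51A libraries were higher, by 0.69 ± 0.11 on the log2 scale (adjusted p = 7.12e-05; 0.74 without replicate 2). Its total RNA was 64.9, 66.5, 60.9 and 63.3 CPM in S51 and 115, 103, 114 and 109 CPM in S51A, a log2 difference of 0.79 (adjusted p = 1.94e-13) under the 2-fold change.

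Nck2 (1:43445483-43570518) had 3.19, 4.83 and 5.23 CPM in S51 vehicle and 8.88, 11, 11.6 and 10.3 CPM in S51A vehicle. The levels are low, but the groups were apart, by 1.23 ± 0.31 on the log2 scale (adjusted p = 0.00463; 1.26 without replicate 2). In total RNA its log2 difference was 0.59 (adjusted p = 1.83e-06), and Nck2 met the 2-step rule, the 1 of 30 higher where 0.987% of all genes were; none of the 30 met it as a decrease by edgeR (0 at an unadjusted p below 0.05 and 0 by DESeq2), which 0.679% of all genes did. Zyx was lower in S51A vehicle by 0.66 ± 0.12 on the log2 scale (adjusted p = 0.000265), with the highest S51A library at 525 CPM and the lowest S51 library at 634 CPM. Without replicate 2 its difference was -0.42 (adjusted p = 4.06e-05), under the fold for a call. Tln2 (9:67217085-67634045) was the 1 gene called in total RNA, where 2.41% of all genes were lower: 8.25, 8.49, 7.8 and 7.58 CPM in S51 against 3.97, 3.05, 3.46 and 4.21 CPM in S51A. The S51A libraries were all lower, by -1.12 ± 0.12 (adjusted p = 1.66e-08). None was called higher there by edgeR (5.47% of all genes; 14 of 30 at an unadjusted p below 0.05, and 0 by DESeq2). By adjusted p alone 14 were higher, against 31.4% of all genes, and 8 lower, against 32.4%. For TE edgeR called 0 of 30 (0.0529% of all genes were higher and 0.0317% lower; 1 was higher and 6 lower at an unadjusted p below 0.05, and DESeq2 called 0).

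Under bortezomib, Tns3, Fermt1, Enah and Git1 had more footprints in S51A than in S51 (4 of 31 higher, against 10% of all genes). None was called lower by edgeR (7.66% of all genes; 6, Tln2, Flna, Lims1, Zyx, Vasp and Pdlim5, had an unadjusted p below 0.05, and DESeq2 called 0). By adjusted p alone 7 were higher, against 16.6% of all genes, and 3 lower, against 14.9%, the latter being Pdlim5 (-0.37), Zyx (-0.31) and Flna (-0.27). The libraries of 11 genes did not overlap, against 34.4% of all genes. Without replicate 2 of S51 vehicle, which enters only through the shared spread, Tln2 was also called lower. Tns3 had 97.5, 70.8, 81.7 and 72.3 CPM in S51 bortezomib and 172, 158, 160 and 162 CPM in S51A bortezomib. The groups were far apart relative to their spread, with a log2 difference of 1.02 ± 0.11 (adjusted p = 2.62e-07) and of 0.99 ± 0.05 in total RNA (adjusted p = 2.65e-15). Fermt1 was higher by 0.89 ± 0.19 (adjusted p = 0.00136), with the 2 groups at 16.2 to 25.3 CPM and 30 to 46.8 CPM.

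Enah had 81.8, 81.4, 87.9 and 85.1 CPM in S51A bortezomib, above all 4 S51 bortezomib libraries. The log2 difference was 0.66 ± 0.12 (adjusted p = 0.000279). Git1 had 42.2, 37, 40 and 32.1 CPM in S51A bortezomib against 20.4 to 33.5 CPM in S51, so these groups met at their edges. Its log2 difference of 0.59 ± 0.20 (adjusted p = 0.0264) kept its call in 12 of 22 alternatives and lost it by DESeq2, with RLE size factors, with library sizes alone, with the looser filter, with the replicate block and on leaving out any of 5 libraries. None of the 30 met the 2-step rule by edgeR (0 at an unadjusted p below 0.05 and 0 by DESeq2), which 2.29% of all genes met as an increase and 0.679% as a decrease. In total RNA edgeR and DESeq2 called 0 of 30 (5.54% of all genes were higher and 2.74% lower by edgeR; 10 were higher and 12 lower at an unadjusted p below 0.05, and the same numbers by adjusted p alone, against 33.3% and 32.4% of all genes). In TE edgeR and DESeq2 also called 0 of 30 (2.4% higher and 0.571% lower among all genes by edgeR; 3 and 2 at an unadjusted p below 0.05). The comparisons of this paragraph and of those before it share libraries, so their calls are not independent of each other.

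**Figure D5:**
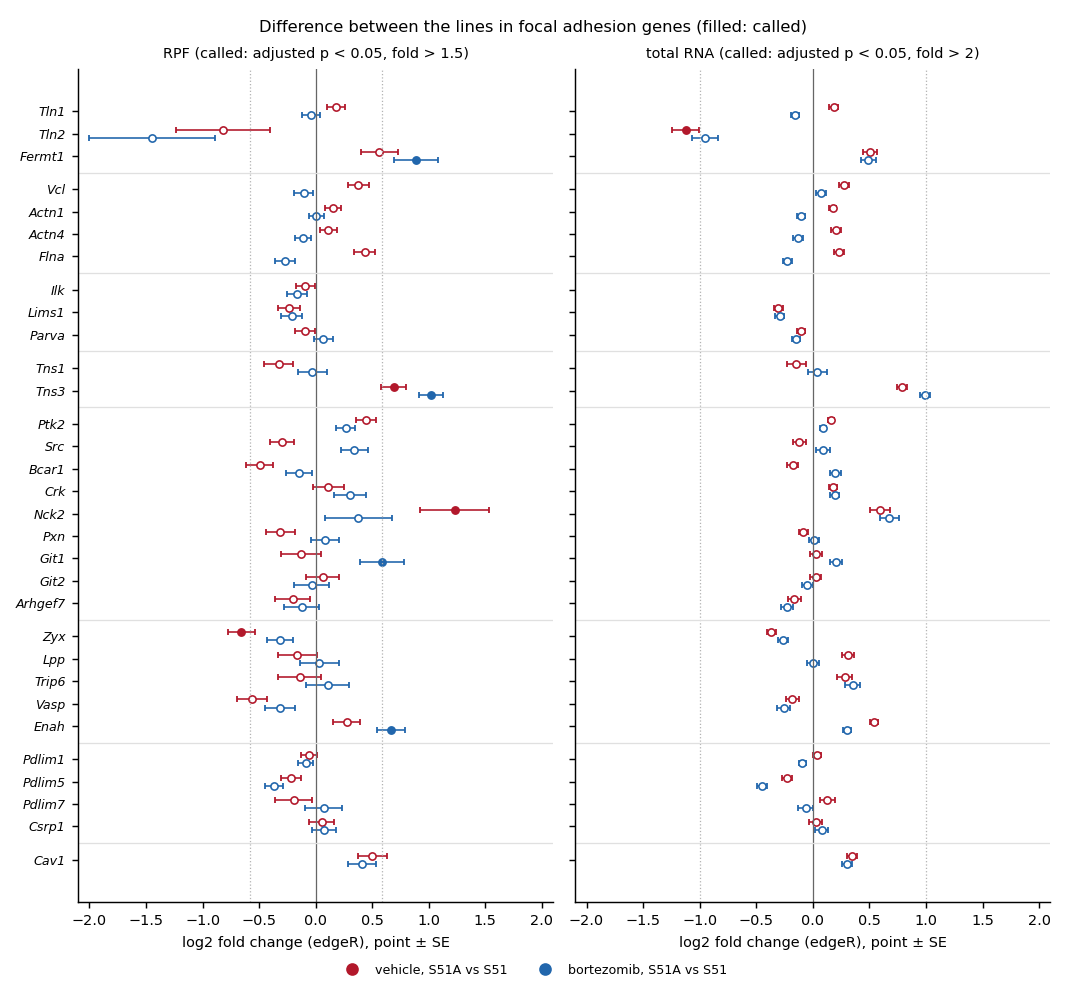
Difference between the lines for each focal adhesion gene: log2 difference (S51A minus S51, x axis) in RPF (left) and total RNA (right), with genes on the y axis ordered by role, vehicle and bortezomib in separate colours, bars for 1 SE and filled points for called differences. Tns3 lies to the right under both treatments (0.69 and 1.02 in RPF), and Tln2 to the left in total RNA (-1.12 and -0.95).

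Other genes of the adhesion and of its surroundings were counted in lists chosen by function. Of 21 integrin subunits, the receptors themselves, 11 were tested in RPF. With bortezomib the fibronectin receptor subunit Itga5 rose in S51 (0.78) and in S51A (0.77), and Itgb6 fell in S51 (-0.82) and in S51A (-1.03). Between vehicle-treated lines 5 subunits were higher in S51A, including Itgb7 (2.61), the collagen receptor subunit Itga2 (2.25) and Itgb5 (1.44), and 1, Itga2b (-1.07), was lower, a call lost without replicate 2 of S51 vehicle. Of 55 other adaptors and kinases, 40 were tested, and in S51 7 fell and 1, the small heat shock protein Hspb1, rose. The LIM proteins Fhl3 (-1.43), Ajuba (-1.26) and Wtip (-0.94) and the tensin Tns4 (-1.21) were among the 7. Without replicate 2 of S51 vehicle 5 fell and 2 rose, and Wtip was not among them. In S51A 3 fell, Tns4 (-1.10), Fhl3 (-1.04) and Ajuba (-0.89), and Hspb1 rose by 1.13. With the same S51 vehicle library left out of the fit, 5 fell in S51A, with Wtip and Pdlim2 added, and Asap3 also rose. Between vehicle-treated lines 5 of the 40 were higher in S51A, among them the filamin-binding Fblim1 (1.33), and 2 were lower, among them Kank2 (-1.10).

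Of 37 genes of actin, myosin II and tropomyosin, 28 were tested. In S51 the filamin Flnc (1.20) was among those that rose, and the cofilin kinase Limk2 fell (-0.83). In S51A edgeR and DESeq2 called 0 with bortezomib, and at an unadjusted p below 0.05 there were 10 higher and 1 lower. Between vehicle-treated lines 7 were higher in S51A, among them Flnc (2.33), the non-muscle myosin Myh14 (2.01), Rock1 (0.73) and Rock2 (0.72). Without replicate 2 of S51 vehicle they were 5, and Rock1 and Rock2 were not called. TE of Actg1, a cytoplasmic actin, fell in S51 (-0.84), and its response difference was 0.69. When replicate 2 of S51 vehicle was left out, TE was called for 3 genes, Actg1, Rock1 and Rock2, in S51 and for the response difference. Of 18 SRF and YAP targets, 12 were tested: 4 fell in S51 (Srf -1.30, Ccn2 -1.28, Thbs1 -0.78 and Amotl2 -0.73) and none rose by edgeR or DESeq2 (0 at an unadjusted p below 0.05). Without replicate 2 of S51 vehicle the call of Amotl2 was lost. In S51A Junb (-1.37), Thbs1 (-0.77) and Fosl1 (-0.65) fell. The response difference was called for Junb (-0.92) and Ccn2 (0.91), with and without replicate 2. Thbs1 (2.15) and Ccn1 (1.61), secreted matricellular proteins, were higher in vehicle-treated S51A, and without replicate 2 the calls were 4, with Amotl2 and Ccn2 added. Of 16 matrix and hemidesmosome genes, 15 were tested. In S51 edgeR and DESeq2 called 0 (2 higher and 1 lower at an unadjusted p below 0.05), Plec rose without replicate 2, and in S51A Dst fell (-0.75). The hemidesmosome integrin Itga6 (0.88) and the laminin chain Lama3 (0.75) were higher in vehicle-treated S51A. Across the lists, the percentages of all genes given above for each comparison are the measure against which the counts of calls stand. They do not apply to counts at an unadjusted p, for which no share of all genes is given.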

How the data were processed

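Cells were lysed, ribosome footprints and total RNA were sequenced from the same lysates, and the authors deposited raw counts per Entrez gene for each kind of library. The study's methods describe FastX trimming, footprints of 20 to 23 and 26 to 32 nt, alignment to mm10, and plastid counting over coding regions without the first 15 and last 5 codons; the submitters' processing notes name Bowtie2, featureCounts and DESeq2 without a role. No deposited column was left unused. Here CPM used the totals of the tested genes scaled by TMM, and only the floor in CPM used library totals. Counts passing filterByExpr (minimum 10 counts, 15 in total; 9457 genes in RPF, 11708 in total RNA) were fitted with edgeR 4.0.16 in R 4.3.3 (TMM, quasi-likelihood test, 1 coefficient per group); SE is the absolute log2 difference over the root of F. TE was the interaction of kind and group over 31 libraries. DESeq2 1.42.0, RLE, library sizes alone, other filters, replicate blocks and leaving out each library were alternatives. Scripts were tested on simulated data. The members and lists were chosen with earlier results of these data known. Values per library are given for members called in any measure and for Vcl and Zyx, and list genes by size of change. Replicate pairs differed beyond sampling noise (chi-square per gene of at least 1.66 in RPF and 2.78 in total RNA), so none was counted as a duplicate. Lysate pairs deviated together with r of -0.065 to 0.366. The floor was 3 counts and covers counting error only.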

Additional observations from a re-analysis of the deposited data

Results flagged for a closer look

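Among 77 groups of 4 libraries, 5 held a value far from the others of its group by Dixon's test, and chance alone gives about 1 in 20. Tln2 footprints stood at 0.56 CPM in S51 bortezomib replicate 4 (next 3.83) and at 2.6 CPM in S51A bortezomib replicate 3 (next 0.975), both from few counts. Nck2 footprints stood at 13.2 CPM in S51 bortezomib replicate 3 (next 5.74). Total RNA of Zyx stood at 219 CPM in S51 vehicle replicate 1 (next 203) and at 124 CPM in S51A bortezomib replicate 4 (next 138).

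The bortezomib response differed between the lines, by edgeR's test of the difference itself with Benjamini-Hochberg adjustment, in 14 results for 11 genes. In RPF these were Flna (-0.70, adjusted p = 0.00351), Src (0.64, adjusted p = 0.0355) and Vcl (-0.48, adjusted p = 0.0431), as S51A minus S51 on the log2 scale. In TE it was Enah (0.61, adjusted p = 0.0377). In total RNA the response was lower in S51A for Flna (-0.45, adjusted p = 9.3e-06), Tln1 (-0.34, adjusted p = 8.59e-05), Actn4 (-0.34, adjusted p = 0.000411), Lpp (-0.31, adjusted p = 0.00431), Actn1 (-0.28, adjusted p = 0.000138), Enah (-0.24, adjusted p = 0.00183), Pdlim5 (-0.22, adjusted p = 0.0169) and Vcl (-0.21, adjusted p = 0.0201). It was higher in S51A for Bcar1 (0.38, adjusted p = 0.000449) and Tns3 (0.20, adjusted p = 0.0245). All of the total RNA differences lay under 2-fold.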

How the results depend on the processing

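Single genes were followed only in results with an adjusted p below 0.05 in the fit used above, with Vcl and Zyx added. New calls in other results are therefore not counted, and a change of sign without a call was counted as kept. Among the results followed, no call reversed. Away from left-out libraries, 937 results kept their side of the threshold, 5 gained a call and 10 lost one. With 1 library left out 2582 kept it, 13 gained and 50 lost. Counts of called adhesion genes moved as follows, and the cause was not tested. With a replicate block the RPF response difference gave 1 (Flna; 2 otherwise) and the 2-step rule in S51 gave 2 (Nck2, Git1; 1 otherwise). With library sizes alone, total RNA gave 2 in S51 (Fermt1, Src; 1 otherwise) and 1 between bortezomib-treated lines (Tns3; 0), TE gave 1 in S51 (2) and 0 for the response difference (1), and the 2-step rule gave 1 between bortezomib-treated lines (Tln2; 0). DESeq2 gave 1 for TE in S51 (Git1), and a lysate block gave 0 for the TE response difference. No source ties the replicate numbers to a shared culture or day, and they were not used as pairs, since not every same-number pair deviated together at r over 0.1 (3 of 21 in RPF, 19 of 24 in total RNA). In total RNA the same-number r was 0.019 to 0.321 (median 0.138, against -0.043 for different numbers) and 15 of 16 libraries deviated most like their own number; in RPF it was -0.166 to 0.269 and 11 of 15 did, a hint from the data only. With the replicate block the Src response difference in RPF (0.59, adjusted p = 0.055) and the Git1 difference between bortezomib-treated lines (0.57, adjusted p = 0.0322, under the fold) were not called. Leaving out 1 library at a time, RPF calls ranged from 5 to 8 for S51 bortezomib, 2 to 7 between vehicle-treated lines (7 without S51 vehicle replicate 3), 3 to 5 between bortezomib-treated lines and 1 to 2 for the response difference. Total RNA ranged from 0 to 1 in S51, in S51A and between bortezomib-treated lines. TE ranged from 0 (without S51 bortezomib replicate 3) to 4 (without S51 vehicle replicate 3: Enah, Git1, Pdlim7 and Zyx) in S51, 0 to 1 between vehicle-treated lines and 0 to 2 for the response difference. The 2-step rule ranged from 1 to 3 in S51 and from 0 to 1 between lines in either treatment. The Git1 difference between bortezomib-treated lines ranged from 0.46 to 0.73 (adjusted p up to 0.127), and the Enah TE response difference from 0.51 to 0.76 (adjusted p up to 0.104), lost in 18 of 37 alternatives. The Src RPF response difference ranged from 0.53 to 0.77 (adjusted p up to 0.0796). Over all genes, a filter at 10 counts gave 991 RPF calls between vehicle-treated lines against 1495, DESeq2 gave 35 total RNA response differences against 56, and leaving out 1 library moved the RPF response calls from 176 to between 99 and 383. TE calls in S51 were 862 without S51 vehicle replicate 3 against 485; between vehicle-treated lines they were 5 under the filter, 2 with the lysate block, 33 by DESeq2 and 3 to 393 with 1 library left out, against 8; for the response difference they were 64 with the block, 210 by DESeq2 and 78 to 282 with 1 library left out, against 122. Library sizes alone turned higher and lower calls from 230 and 354 to 161 and 578 in S51 total RNA (median shift -0.16), from 191 and 298 to 155 and 431 in S51A total RNA (-0.13), from 110 and 375 to 398 and 244 in S51 TE (0.16), from 227 and 54 to 142 and 132 in TE between bortezomib-treated lines (-0.10), and from 102 and 20 to 61 and 36 in the TE response difference. The signs of the small total RNA responses of Ptk2 and Pdlim1 in S51 and Flna in S51A flipped under it. RPF libraries were the shallower, which limits Tln2 and Nck2 most.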
